A study of Mus with 6 samples.

Results

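Small nucleolar RNAs (snoRNAs) are short RNAs of the nucleolus that base-pair with ribosomal RNA and carry modifying proteins to it. H/ACA snoRNAs, whose mouse genes are named Snora, direct the change of uridine to pseudouridine through the enzyme Dkc1, and C/D snoRNAs, named Snord, direct methylation of the ribose through Fbl. Most mammalian snoRNAs have no promoter of their own: they are cut out of the introns of host genes, many of which encode ribosomal proteins, translation factors or spliced noncoding RNAs. TPM is a share of all transcripts corrected for gene length. The deposited columns share nearly all quantiles, so their values are such shares only approximately. Blanks were taken as 0. The snoRNA genes described here were those of the annotation type snoRNA with a mean of at least 0.5 TPM over the 6 libraries. Of 123 snoRNA genes in the table of 48882 genes, 53 met this rule, 21 Snora, 30 Snord and 2 with other names. Of the other 70, 42 had no value in any library and 28 had values but a mean below 0.5 TPM. The members were thus chosen by their level, so that level is a description and not a finding.

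RNA was sequenced from 3 liver samples of mice without Fabp4, the gene of a fatty acid-binding protein (FABP4-/-, here knockout), and 3 of wild type littermates. The mice of both groups had been fed the Lieber-DeCarli liquid diet with ethanol for 8 weeks and were then given 1 ethanol binge, a regimen that produces fatty and inflamed liver. Livers of mice that received no ethanol were not analysed here. The labels give neither the age, sex or strain of the mice nor how the Fabp4 allele was made, and do not say that each sample is a separate mouse, so the p-values reflect the spread between libraries, which may be technical. In bulk liver RNA, fewer cells of a type and less RNA per cell cannot be told apart.

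Fabp4, the deleted gene, stood at 14.7, 8.15 and 19.96 TPM in wild type and had no value in any knockout library. The hepatocyte genes Alb, Ttr, Apoa1, Cps1 and Hnf4a were all abundant, Hnf4a with 227 to 281 TPM. A value was present for 20664 to 21438 genes per library. Wild type replicate 2 stood at -38.1 on the first principal component, where knockout replicates 2 and 3 stood at 22.3 and 21.6. The others ran from -2.50 to -1.31. On the second component knockout replicate 1 stood at -30.8 and wild type replicate 1 at 21.8, where the others ran from -5.92 to 6.76. Markers of some other cell types lay apart between the groups, none of them past the limma threshold: the summed TPM of 4 endothelial markers was 60.3 to 80.9 in wild type and 84.7 to 92.9 in the knockout, that of 4 B and T cell markers 2.29 to 3.41 and 4.59 to 6.61, and that of 3 neutrophil markers 19.8 to 48.5 and 14.3 to 19.6. None of these 11 markers was at 0 in any library, and their part in the snoRNA values was not tested.

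The snoRNA signal was sparse. In each library the product of TPM and gene length of low snoRNA genes came in steps of one size, 97.4, 99.7 and 99.9 TPM bases in the wild type libraries and 105, 87.4 and 83.0 TPM bases in the knockout libraries. The size of a step was set by values of 1 step. Of the 123 member values between 2 and 10 steps, which did not set it, 103 (83.7%) lay within 0.1 of a whole number of steps, the pattern that whole reads would leave. A snoRNA gene of 100 bases therefore could not take a value between 0 and about 0.830 to 1.05 TPM. Of the 318 member values (53 genes in 6 libraries), 102 were blank, 130 stood for 1 to 3 steps and 29 for more than 10. With each value rounded to whole steps, over all 6 libraries the median member had 9 steps, 27 members had under 10, and 11 had at least 20. Differences of the sparsest members are thus differences of a few steps, and the smallest change that could be detected in them was not computed.

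Snora20 was the most abundant snoRNA gene in 5 of the 6 libraries, all but wild type replicate 3, where Snord4a was slightly higher. This H/ACA gene (mm10 chromosome 17, 12922857 to 12922917, plus strand, 61 bases) lies inside Tcp1, which encodes a subunit of the cytosolic chaperonin that folds actin and tubulin, and in human cells its RNA guides pseudouridylation of small-subunit ribosomal RNA. Wild type replicates 1, 2 and 3 held 43.4, 32.7 and 34.6 TPM of it, and knockout replicates 1, 2 and 3 held 65.9, 73.9 and 93.5 TPM. Each knockout library was above each wild type library. The wild type mean was 36.9 ± 5.71 TPM (SD, n = 3) and the knockout mean 77.8 ± 14.2 TPM (SD, n = 3), a ratio of 2.11. On the log2(TPM + 1) scale, on which all tests were made, the difference was 1.05 (SE 0.17), larger than the within-group SD of 0.23. It did not pass the threshold of 0.05 after Benjamini-Hochberg adjustment over all 14155 genes tested (limma, adjusted p 0.387, unadjusted p 0.000344). With 3 libraries in each group the exact permutation test (two-sided) cannot go below p = 0.1. Groups that do not overlap always give that value, as for Snora20, so the test adds nothing to the lack of overlap. Snora20 had 27, 20 and 21 steps in the wild type libraries and 38, 52 and 69 steps in the knockout libraries.

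**Figure D1:**
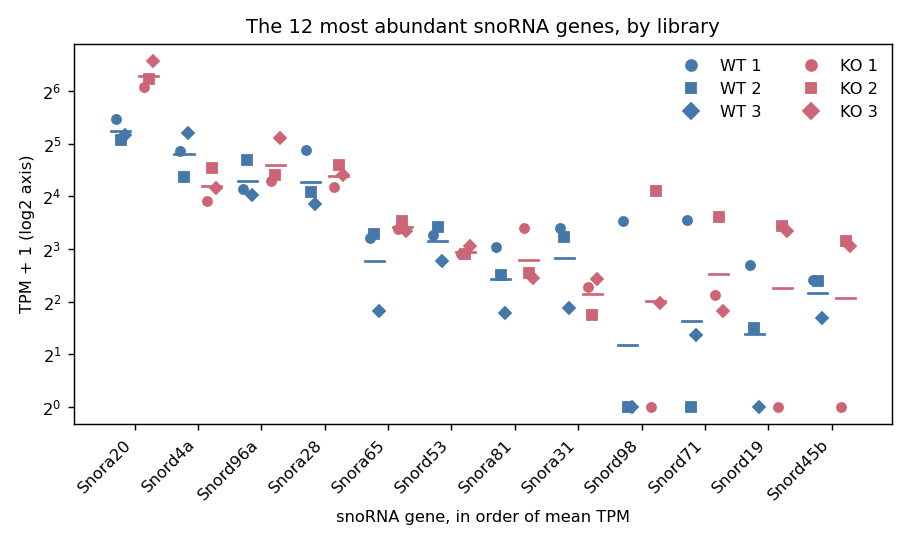
TPM + 1 on a log2 axis for the 12 snoRNA genes with the highest mean TPM, in the 3 wild type (WT, blue) and 3 knockout (KO, red) libraries, with the symbol giving the replicate and each bar the mean on the log2(TPM + 1) scale; points at the bottom are blanks. Snora20 is the highest gene, with all 3 knockout libraries above all 3 wild type libraries, and blanks begin with Snord98.

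The host gene Tcp1 (mm10 chromosome 17, 12916329 to 12925067) differed less than the snoRNA inside it. The wild type libraries held 164, 185 and 152 TPM of Tcp1 and the knockout libraries 201, 183 and 206 TPM, so the groups overlapped (log2 0.24, SE 0.13, limma adjusted p 0.697). The TPM of Snora20 was 26.4%, 17.6% and 22.8% of that of Tcp1 in wild type and 32.8%, 40.4% and 45.3% of it in the knockout, with no overlap between the groups. The sources used here do not give strandedness or the treatment of intronic reads, so reads of Tcp1 precursor RNA across this interval and reads of the mature snoRNA cannot be told apart. The library with the highest Snora20, knockout replicate 3, also had the highest sums of 4 Kupffer cell markers and of 4 proliferation genes. That was not particular to these lists: its sums of endothelial, B and T cell and red blood cell markers were the highest too. Its sums of hepatocyte, stellate, cholangiocyte and neutrophil markers were not. The summed TPM of the Kupffer markers was 145, 69.7 and 83.1 in wild type livers, against 128, 171 and 296 in the knockout. All 4 had positive differences (median log2 0.99), and 2 of them, Vsig4 and Timd4, did not overlap between the groups. Of all genes tested 8.94% were higher without overlap. The summed TPM of the proliferation genes was 7.31, 6.94 and 2.997 in wild type livers, against 10.1, 8.30 and 32.6 in the knockout, with no overlap, and all 4 had positive differences (median log2 0.88). None of those 8 genes was at 0 in any library, and their part in the Snora20 value was not tested. Without knockout replicate 3 the Snora20 difference was 0.91 (limma adjusted p 0.730). Without wild type replicate 2 and knockout replicate 1, the libraries lowest on the first and on the second principal component, it was 1.08 (limma adjusted p 0.591).

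**Figure D2:**
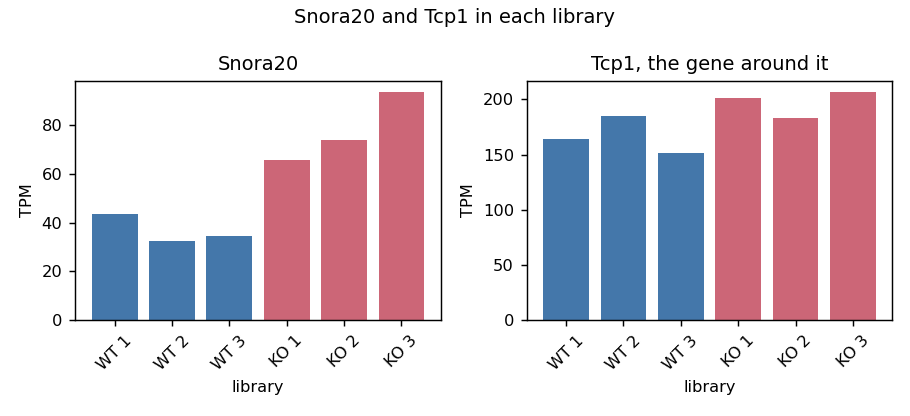
TPM of Snora20 (left) and of Tcp1, the gene that contains it (right), in each wild type (WT, blue) and knockout (KO, red) library; each bar is 1 library. Snora20 runs from 32.7 to 43.4 TPM in wild type and from 65.9 to 93.5 TPM in the knockout, whereas the Tcp1 values of the groups overlap.

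The next 3 members overlapped between the groups. Snord4a, whose human RNA guides methylation of small-subunit ribosomal RNA, lies inside the ribosomal protein gene Rpl23a (mm10 chromosome 11, 78181687 to 78181756, minus strand). It stood at 28.2, 19.6 and 35.7 TPM in wild type livers, against 14.1, 22.1 and 16.8 TPM in the knockout. Knockout replicate 2 lay above wild type replicate 2, so the groups overlapped (log2 -0.61, SE 0.24, limma adjusted p 0.585). Snord96a, which in human cells guides methylation of a large-subunit ribosomal RNA and lies in the ribosomal scaffold gene Rack1 (mm10 chromosome 11, 48802033 to 48802109, plus strand), stood at 16.6, 24.9 and 15.2 TPM in wild type livers, against 18.55, 20.04 and 33.2 TPM in the knockout (log2 0.31, SE 0.26; 0.059 when knockout replicate 3 was left out and 0.52 when wild type replicate 2 was). Its highest library was knockout replicate 3 and its lowest wild type replicate 3, with overlap between. Snora28, in the translation initiation factor gene Eif5 (mm10 chromosome 12, 111540946 to 111541067, plus strand), stood at 28.3, 15.9 and 13.5 TPM in wild type livers, against 17.1, 23.1 and 20.2 TPM in the knockout (log2 0.12, SE 0.26). The wild type values enclosed the knockout values. Snord4a, Snord96a and Snora28, with means of 22.8, 21.4 and 19.7 TPM, were neighbours in the order of levels whose ranges overlapped, while Snora20 had a mean of 57.3 TPM. The 3 knockout values of Snora20 and that of wild type replicate 1 lay above every value of these 3 genes.

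The next members were well below these 4 genes in level. Snora65, Snora81 and Snora31 guide pseudouridylation of large-subunit ribosomal RNA in human cells. Snora65, inside the ribosomal protein gene Rpl12 (mm10 chromosome 2, 32963301 to 32963418, plus strand), stood at 8.28, 8.79 and 2.55 TPM in wild type livers, against 9.42, 10.52 and 9.08 TPM in the knockout. The groups did not overlap, but wild type replicates 1 and 2 lay close below the knockout libraries, and wild type replicate 3 was the low one (log2 0.64, SE 0.36, limma adjusted p 0.713). Without that library the difference was 0.16. Snord53, inside Wdr43, whose protein acts in small-subunit processing, was at 8.59, 9.69 and 5.86 TPM and at 6.46, 6.46 and 7.31 TPM in the 2 groups (log2 -0.20, SE 0.18). Snora81, inside the RNA helicase gene Eif4a2, was at 7.16, 4.65 and 2.44 TPM and at 9.49, 4.86 and 4.49 TPM (log2 0.36, SE 0.36). Their groups overlapped. With 1 library left out the difference ran from -0.39 to -0.069 for Snord53. That of Snora81 ran from 0.036, when wild type replicate 3 was left out, to 0.66, when replicate 1 was. Snora31, inside the translationally controlled tumour protein gene Tpt1, stood at 9.55, 8.39 and 2.67 TPM in wild type livers, against 3.87, 2.36 and 4.38 TPM in the knockout (log2 -0.68, SE 0.40). Here wild type replicate 3 lay among the knockout libraries and the other wild type libraries above them, and without wild type replicate 3 the difference was -1.16.

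From Snord98 down, blanks entered the values. Snord98 has 28 annotated bases, the shortest member, so that a single step was worth several TPM: it had no value in wild type replicates 2 and 3 or in knockout replicate 1 and stood at 10.51, 16.1 and 2.92 TPM in wild type replicate 1 and knockout replicates 2 and 3. Snord71 ran from blank to 10.7 TPM in wild type and from 2.55 to 11.2 TPM in the knockout. Snord19 was blank in wild type replicate 3 and knockout replicate 1 and reached 9.84 TPM, and Snord45b was blank in knockout replicate 1 and reached 7.83 TPM. The log2 differences of these 4 C/D genes were 0.85 (SE 1.21), 0.88 (SE 0.86), 0.87 (SE 1.0) and -0.09 (SE 0.78), each smaller than or close to its error. At the lower edge of the rule, Snord14d, Snord123 and Snora15 had means of 0.574, 0.539 and 0.521 TPM, and Snord15b, Snord12 and Snord14c, just below it, had 0.469, 0.412 and 0.411 TPM. Snord12 and Snord14c each rested on 1 library. The copies Snord14a, Snord14c and Snord14d are close in sequence and can share reads, so their separate values are uncertain. Among the 42 genes with no value, chosen for mention after the values were seen, were Snord118 and Snord13, known as U8 and U13, and Snord116, a family of the imprinted Prader-Willi region that is best known from brain.

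No snoRNA gene passed the test over all genes. Of the 53 members, 0 had a limma adjusted p under 0.05, where 0.00706% of all 14155 genes passed, a single gene, Fabp4. That call depended on the setting: 0 genes passed without a filter or with the replicate number as a block. The same held when replicate 1 or 3 of the wild type or replicate 2 of the knockout was left out. Among genes with a value in all 6 libraries 0 passed too, but Fabp4, blank in the knockout, was not tested there. With so few calls over all genes, 0 among the members says little about them. The smallest adjusted p among members was the 0.387 of Snora20. At an unadjusted p under 0.05 (limma) there were 8 members higher in the knockout, where 5.12% of all genes were, and 5 lower, where 2.91% were. These 13 are 24.5% of the members. With a pseudocount of 0.1 in place of 1, 10 members had an unadjusted p under 0.05 (limma), and the share of all genes was not taken there. The split among all genes moved with scaling, to 3.99% higher and 3.74% lower after median scaling and 4.03% and 3.79% after quantile normalization, where 8 members were higher and 6 lower. Of the 13, 5 had groups that did not overlap and are described with the non-overlapping members. The other 8 overlapped: Snord4a, Snora70, Snora52 and Snord42b with negative differences, and Snord14a, Snord93, Snord47 and Snord58b with positive ones, all named here after their values were seen. Snora70, inside Rpl10, stood at 5.33, 5.15 and 3.10 TPM in wild type livers, against 3.35, 1.36 and 2.53 TPM in the knockout (log2 -0.71, SE 0.27, limma adjusted p 0.579). Snord93, Snord47 and Snord58b each had no value in wild type or in knockout replicate 2 and were present in knockout replicates 1 and 3. The share at an unadjusted p under 0.05 was 15.4% for the 175 other tested genes shorter than 300 bases and 17.0% for the 88 tested microRNA genes. The members with blanks passed the abundance rule in part through the group in which they were high, so this share is no support for a difference. The median within-group SD was 0.75 on the log2(TPM + 1) scale for members and 0.21 for the 12253 other genes in the same range of mean TPM.

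The 3 knockout values lay wholly above the 3 wild type values for 5 members (9.43%), where 8.94% of all genes did so, and wholly below for 1 member (1.89%), where 4.38% did so. Without wild type replicate 1 that count of 6 members was 14 (26.4%), where 24.6% of all genes had no overlap, since fewer values have to separate. It was 10 to 13 without any other single library, where 19.6% to 27.4% of all genes had none. Besides Snora20 and Snora65 the higher ones were Snora33, Snord2 and Snord104. Snora33, inside Rps12 (mm10 chromosome 10, 23785347 to 23785451, minus strand), had no value in any wild type library and stood at 0.992, 0.834 and 7.10 TPM in the knockout, that is at 1, 1 and 9 steps, so most of it came from knockout replicate 3. No fold is given, as the wild type libraries were listed without a value. Snora33 met the abundance rule only through the knockout libraries, so its lack of overlap is no support for a difference. Snord2, inside Eif4a2 (mm10 chromosome 16, 23108953 to 23109020, plus strand), stood at 1.43 and 1.47 TPM and blank in wild type livers, against 1.55, 5.20 and 3.63 TPM in the knockout. Knockout replicate 1 and wild type replicates 1 and 2 each held a single step of it. Snord104 (mm10 chromosome 11, 106500991 to 106501063, plus strand) stood at 1.33, blank and 1.36 TPM in wild type livers, against 2.95, 4.86 and 2.25 TPM in the knockout. The limma adjusted p was 0.536 for Snora33 and Snord104 and 0.564 for Snord2. The member below in all knockout libraries was AF357399, a snoRNA gene inside Rps16 named only by its sequence record (mm10 chromosome 7, 28351540 to 28351633, plus strand). It stood at 5.20, 5.07 and 4.25 TPM in wild type livers, against 3.46, 0.926 and 0.890 TPM in the knockout, 4 to 5 steps against 1 to 3 (log2 -1.20, SE 0.32, limma adjusted p 0.522).

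**Figure D3:**
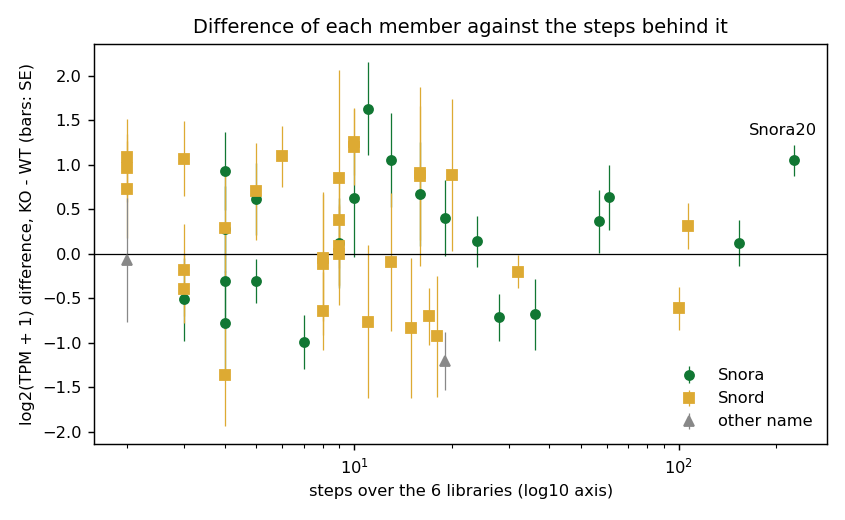
Log2(TPM + 1) difference between knockout and wild type (KO - WT, bars are the SE from limma) of each of the 53 snoRNA genes against the number of steps behind it, summed over the 6 libraries, on a log10 axis. The spread of differences is wide for genes with few steps, and Snora20 stands at the right with a difference of 1.05.

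The H/ACA and C/D classes were compared because they use different proteins and different chemistry. The Snora genes were the longer class, with a median of 120 bases against 68 bases for the Snord genes, so that 1 step was worth less TPM in them. A value in all 6 libraries was present for 8 of 21 Snora and 4 of 30 Snord members. Of the Snora members 14 had a log2 difference above 0 and 7 below, with a median of 0.28. That median was 0.21 without Snora20, 0.12 without the abundance filter, and 0.44 with a pseudocount of 0.1. Leaving out wild type replicate 1, 2 or 3 gave 0.42, 0.13 and 0.12, and leaving out knockout replicate 2 gave 0.18. Of the Snord members 16 were above and 14 below, with a median of 0.19, and that median was -0.04 among the 21 with a mean of at least 1 TPM. With a pseudocount of 0.1 the Snord median was 0.54, above that of Snora. Leaving out wild type replicate 1, 2 or 3 gave 0.06, 0.18 and 0.26 for Snord, and leaving out knockout replicate 2 gave 0.23. The order of the class medians thus changed with the setting. Over all genes tested, 57.4% were above 0 and the median was 0.04. Between libraries of a group, the SD of the median centred level was 0.29 for Snora and 0.14 for Snord on the log2(TPM + 1) scale, next to class differences of 0.28 and 0.19.

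Snora20 carried much of the class total. The summed TPM of the 21 Snora members was 121, 84.1 and 73.1 in the wild type libraries and 134, 134 and 158 in the knockout libraries, with no overlap. Without Snora20 the sum was 77.9, 51.5 and 38.5 in wild type and 67.8, 60.0 and 64.1 in the knockout, and the groups overlapped. The share of Snora20 in the Snora sum was 35.8%, 38.8% and 47.4% in wild type and 49.3%, 55.2% and 59.3% in the knockout. The summed TPM of the 30 Snord members was 111, 104 and 110 in wild type and 82.8, 133 and 123 in the knockout. Knockout replicate 1 had the lowest Snord sum of the 6 libraries and the other knockout libraries the highest. The ratio of the Snora to the Snord sum was 1.10, 0.810 and 0.664 in wild type and 1.61, 1.01 and 1.28 in the knockout, and without Snora20 it was 0.349 to 0.705 and 0.452 to 0.818. Both ratios overlapped between the groups. Members with a value numbered 37, 31 and 33 in wild type and 40, 36 and 39 in the knockout, next to 21151, 20922 and 20664 and then 21438, 20836 and 21273 genes of all types.

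**Figure D4:**
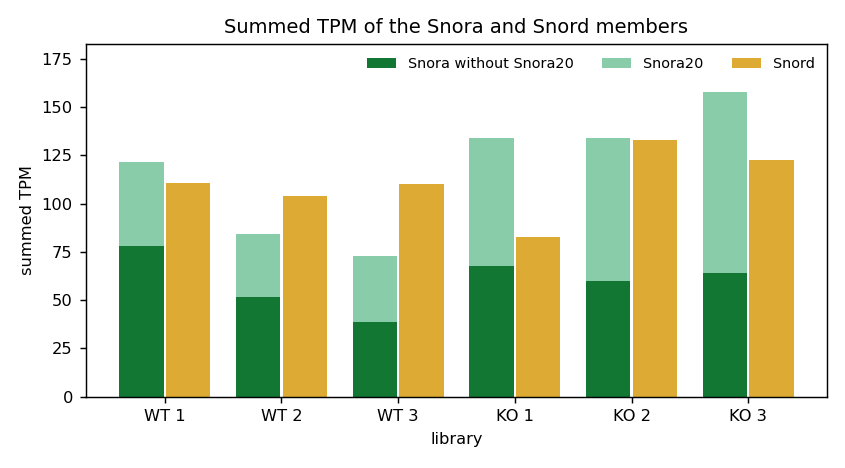
Summed TPM of the Snora members, split into Snora20 (light green) and the other 20 genes (dark green), and of the 30 Snord members (yellow), in each wild type (WT) and knockout (KO) library. The light green part is 32.7 to 43.4 TPM in wild type and 65.9 to 93.5 TPM in the knockout, and the dark green parts overlap between groups.

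Of the 53 members, 52 lay inside a longer gene on the same strand by the positions in the table, and 45 different host genes held them. Snord64, of the imprinted Prader-Willi region, had none. The table does not say whether a member lies in an intron or an exon. Ribosomal protein genes were 15 of the 42 hosts that met the abundance rule, and 34 of the 45 hosts were protein-coding. The 42 hosts had means of 1.97 to 2904 TPM, and in 49 pairs with them the median member stood at 2.45% of its host. In 15 pairs the member stood above 10% of its host, and Snora17, inside Snhg7, had a mean above that of its host (101%). The other 3 hosts were below 0.5 TPM, under the snoRNAs inside them. Across 49 pairs, the level of the snoRNA and that of its host had a Spearman rho of 0.15, a description over genes that share the same libraries. Of the 42 hosts, 19 were higher and 23 lower in the knockout, with a median log2 difference of -0.03, and 0 had a limma adjusted p under 0.05 (4, or 9.52%, had an unadjusted p under 0.05, where 8.03% of all genes did). The median size of the difference, sign left aside, was 0.08 for the 42 hosts and 0.67 for the 49 members inside them. Member and host differed in the same direction in 19 of 49 pairs, with a Spearman rho of -0.07 between the differences. The lowest difference was that of 2410006H16Rik, host of Snord49a (log2 -0.82, SE 0.35, limma adjusted p 0.621), and Eif5, host of Snora28, was at 0.38 (SE 0.15, limma adjusted p 0.581), both with overlap between the groups. Of the 42 hosts 1 was without overlap between the groups, where 13.3% of all genes tested were. That host was Hspa8, a heat shock cognate chaperone gene, with higher values in all 3 knockout libraries (log2 0.44, SE 0.14, limma adjusted p 0.536). Snord14d inside it had values in only 2 libraries.

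**Figure D5:**
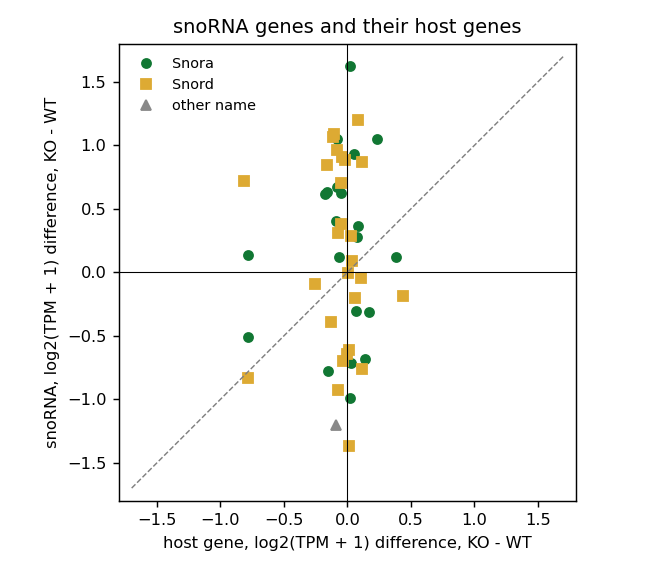
Log2(TPM + 1) difference between knockout and wild type (KO - WT) of 49 snoRNA genes (y) against that of the gene containing each (x), with the dashed line marking equal differences. Hosts lie between -0.82 and 0.44 and most sit near 0, while the snoRNA genes spread from -1.37 to 1.63.

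snoRNAs of 1 host are cut from 1 primary transcript, and 6 hosts held 13 members. In Rpl23a, Snord4a averaged 22.8 TPM and Snord42b 1.16 TPM, with Snord42b blank in all 3 knockout libraries and at 1.77, 5.18 and blank in wild type. In Rack1, Snord96a averaged 21.4 TPM and Snord95 4.25 TPM, and their differences had opposite signs (log2 0.31, SE 0.26 and log2 -0.93, SE 0.68). In Eif4a2, Snora81 and Snord2, of different classes, averaged 5.52 and 2.21 TPM. In the nucleolar GTPase gene Gnl3, Snord19 and Snord69 averaged 4.38 and 3.04 TPM, with differences of 0.87 (SE 1.0) and -0.76 (SE 0.86). The spliced noncoding host Snhg12 held Snord99, Snora16a and Snora61. It stood at 24.4, 18.8 and 17.0 TPM in wild type livers, against 18.8, 9.66 and 7.39 TPM in the knockout, with overlap at knockout replicate 1 (log2 -0.78, SE 0.31, limma adjusted p 0.584). The snoRNA genes inside it had log2 differences of -0.84 (SE 0.79), 0.14 (SE 0.28) and -0.51 (SE 0.46). Whether snoRNAs of 1 host differed from each other was not tested.

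Genes of snoRNA biology were compared as lists, none of which had a member past the limma threshold over all genes. Of the 4 H/ACA core protein genes 1 was higher and 3 lower (median log2 -0.04), with the pseudouridine synthase Dkc1 at 12.7 ± 0.670 TPM in wild type and 14.04 ± 0.618 TPM in the knockout (SD, n = 3 each). Of the 4 C/D core protein genes 3 were higher and 1 lower (median 0.20), led by the scaffold gene Nop56 at 13.0 ± 3.01 TPM and 19.7 ± 4.83 TPM (SD, n = 3 each; log2 0.56, SE 0.23, limma adjusted p 0.599). The methyltransferase gene Fbl had a difference of 0.16 (SE 0.19). Of 13 snoRNP assembly genes 5 were higher and 8 lower (median -0.01), and Nufip1, an adaptor in C/D assembly, was lower in all 3 knockout libraries (log2 -0.26, SE 0.14). Of 11 genes of snoRNA processing and decay 3 were higher and 8 lower (median -0.06), with the exosome nuclease gene Dis3 at log2 -0.45 (SE 0.19). The debranching enzyme gene Dbr1, which opens the intron lariat from which a snoRNA is trimmed, had a difference of -0.10 (SE 0.13).

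Of 17 tested spliced host RNAs 3 were higher and 14 lower in the knockout (median log2 -0.13). Of these 17, 0 were without overlap between the groups, where 13.3% of all genes tested were. After Snhg12, the smallest p-values were those of Epb41l4aos (log2 -0.68, SE 0.29, limma adjusted p 0.607) and Snhg20 (log2 -0.53, SE 0.27). Gas5, which hosts many C/D snoRNAs including Snord47, had a difference of -0.12 (SE 0.21). Of 10 nonsense-mediated decay genes, a pathway that degrades many of these host RNAs, 7 were higher and 3 lower (median 0.09). Of 18 genes of the small-subunit processome, the particle in which many snoRNAs act, 11 were higher and 7 lower (median 0.02). Utp4, at 9.67 ± 0.326 TPM and 13.1 ± 1.04 TPM (SD, n = 3 each), was higher in all 3 knockout libraries (log2 0.40, SE 0.12, limma adjusted p 0.536). Of 13 RNA polymerase I genes 7 were higher and 6 lower (median 0.02), with the transcription factor gene Ubtf higher in all 3 knockout libraries (log2 0.20, SE 0.12).

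Other small RNAs were set beside the snoRNA genes. Of 9 guide RNA genes of Cajal bodies (Scarna), which modify spliceosomal RNAs, 3 met the abundance rule, and their log2 differences were 1.01 (SE 0.65) for Scarna2, -0.22 (SE 0.32) for Scarna17 and 0.37 (SE 0.82) for Scarna9. Of the 88 microRNA genes 42 were above 0 and 46 below (median -0.06). The signal recognition particle RNA gene Rn7s2, chosen after its values were seen, stood at 24.7, 42.5 and 19.3 TPM in wild type livers, against 2252, 1878 and 41.6 TPM in the knockout. It was high in knockout replicates 1 and 2 and not in replicate 3, the library in which Snora20 was highest, and its limma adjusted p was 0.536. Its near-identical copy Rn7s1 can share its reads. Rmrp, the RNA of a ribosomal RNA processing ribonuclease, also chosen after its values were seen, was blank, 0.349 and blank in wild type livers, against 8.08, 0.648 and 1.20 TPM in the knockout, with no overlap (limma adjusted p 0.579). Rmrp met the abundance rule only through the knockout libraries, mostly replicate 1, so its lack of overlap is no support for a difference.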

How the data were processed

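Liver RNA of 6 libraries, 3 per genotype, was analysed from 1 deposited table. Per the file headers its columns hold TPM. The numbers the authors deposited are log2 TPM, as read from the values: they run from -8.88 to 16.59, and 2 raised to them sums to 983800 to 1018118 in a library. The 6 columns share their maximum and nearly all quantiles, as after quantile normalization, which no source names. Per the submitters' processing notes FastQC, Trimmomatic and mm10 were used; the sources used here do not give versions, aligner, quantification tool, strandedness or RNA selection. The gene lengths are those the authors deposited, another quantity in bases.

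Values were turned back into TPM, blanks taken as 0, and tested as log2(TPM + 1) in genes with a mean of at least 0.5 TPM (14155). Knockout was compared with wild type in R 4.3.3 by limma 3.58.1 (linear model with a trended variance prior, two-sided, 4 residual and 3.65 prior degrees of freedom), adjusted by Benjamini-Hochberg over all genes. The design had been written for TPM, the unit used after this conversion. The fit was tested on simulated data. Alternatives were other pseudocounts, filters and scalings, a replicate block, and each library left out. Depth is not given; a step is the median, over a library's snoRNA genes, of the products of TPM and length below 150. A host gene is the most abundant longer gene that contains the snoRNA on its strand. The snoRNA positions of 122 of 123 genes matched the GRCm38.p6 RefSeq table. Of 126 listed genes 125 were found, 7 by an older symbol. The members, lists and tests were chosen with earlier results of these data known. Named were the 12 most abundant members, those without overlap between groups, those at the edge of the rule, listed genes with the smallest p, and hosts; others are said to be chosen afterwards, as were the second members of shared hosts. All 6 value columns were used.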

Additional observations from a re-analysis of the deposited data

How the results depend on the processing

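Over 17 alternative settings, 0 members passed the limma threshold. This says little about stability, since over all genes 0 passed in 6 of the settings and 1 or 2 in the other 11. Among the 6 is the setting of genes with a value in all 6 libraries, which left Fabp4 untested because it was blank in the knockout. The Snora20 difference stayed between 0.91 and 1.17 (limma adjusted p 0.307 to 0.841). The Snord median was 0.54 with a pseudocount of 0.1, 0.044 without a filter, -0.044 and -0.20 with filters at 1 and 5 TPM, and -0.41 among genes with a value in all 6 libraries, where fewer genes enter. Members at an unadjusted p under 0.05 were 2 of 8 at 5 TPM and 4 of 13 with all values. Members without overlap were 2 (25%) and 3 (23.1%), where 12.7% and 13.4% of all genes had none. The share of all genes at an unadjusted p under 0.05 was taken only in the main setting and after median scaling or quantile normalization. Counts of members at that p in the other settings therefore have no share to stand beside. Leaving out 1 library, the members without overlap numbered 10 to 14, where 19.6% to 27.4% of all genes had none, since fewer values must separate. Members at an unadjusted p under 0.05 then numbered 10 to 12. The medians ran from 0.12 to 0.42 for Snora and from 0.06 to 0.30 for Snord. Among 257 differences of 16 named members 6 changed sign. Snord45b (-0.63 to 0.94 with 1 library left out) turned when a wild type library, replicate 1 (0.031) or 2 (0.018), or knockout replicate 1 was left out. Snora28 (-0.084 to 0.42) turned without wild type replicate 3, and Snord98 (-0.19 to 2.02) without knockout replicate 2. Without wild type replicate 2 and knockout replicate 1, chosen after seeing the data, Snord45b was at 1.05 and 17 members (32.1%) had no overlap, where 37.7% of all genes had none; dropping the variance trend, also added then, left the counts at 13 and 6. Hosts taken on any strand were the same 52. The labels do not tie replicate numbers to litters, so same-numbered libraries were not treated as pairs. Their deviations from the group means had r of -0.26, -0.27 and -0.05, which with 3 libraries per group cannot decide whether they are pairs. With the replicate block 0 members passed, 15 had an unadjusted p under 0.05 and Snora20 had a limma adjusted p of 0.822. The causes of these shifts were not tested.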
